A study of Mus musculus with 16 samples.

Results

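The mRNAs of 10 proteins that bind microtubules or take part in their organization were followed in cultured mouse motoneurons: *Mapt*, *Map1a*, *Map1b*, *Map2*, *Map4*, *Map6*, *Dcx*, *Dclk1*, *Macf1* and *Crmp1*. They were chosen by name, and each matched 1 of the 46320 genes of the count table. Lumbar spinal motoneurons of C57Bl/6 mouse embryos at day 13 were enriched by panning on an antibody to the neurotrophin receptor p75NTR and were grown in microfluidic chambers that separate axons from cell bodies and dendrites. The 4 groups were somatodendritic and axonal RNA of +/+ motoneurons and somatodendritic and axonal RNA of *Hnrnpr*-/- motoneurons, with 4 libraries in each and 16 in all. The knockout allele lacks exons 1 to 5 of *Hnrnpr*, which encodes an RNA-binding protein, and was made with CRISPR/Cas9. It is constitutive, so that any other cell in the cultures carried it too. Both compartments of all cultures received the growth factor CNTF, and the axonal compartment also received BDNF.

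Microtubule-associated proteins bind the microtubule lattice or its ends and set how stable, bundled and dynamic microtubules are. Tau, the product of *Mapt*, is known as an axonal protein, whereas MAP2 is known for its place in dendrites, and both share a microtubule-binding repeat domain with the broadly expressed MAP4. MAP1A and MAP1B are large proteins that are cut into heavy and light chains. MAP6 protects microtubules from cold-induced disassembly, and doublecortin, the product of *Dcx*, and its kinase-bearing relative DCLK1 stabilize microtubules in migrating and growing neurons. MACF1 is a spectraplakin, a giant linker between actin filaments and microtubules, and CRMP1 belongs to the collapsin response mediator proteins, which act in semaphorin signaling and bind tubulin.

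On GRCm39, the build of the files, the tau family lies on separate chromosomes, with *Mapt* at chr11:104120235-104222916 (plus strand), *Map2* at chr1:66214337-66481742 (plus strand) and *Map4* at chr9:109758909-109913022 (plus strand). The other structural members are *Map1a* at chr2:121119608-121141313 (plus strand), *Map1b* at chr13:99557972-99653110 (minus strand) and *Map6* at chr7:98916270-98986344 (plus strand). The doublecortin genes are *Dcx* at chrX:142638838-142716392 (minus strand) and *Dclk1* at chr3:55149724-55446489 (plus strand), and the last members are *Macf1* at chr4:123243426-123581594 (minus strand) and *Crmp1* at chr5:37399402-37449507 (plus strand). Reads with several alignments were divided among their targets in these counts, so the coding sequences of the family members were compared. The Ensembl canonical transcripts of GENCODE release M39 on GRCm39 were used, in which coding length ran from 1098 bases in *Dcx* to 22065 bases in *Macf1*. Over 10 pairs of relatives, the longest identical run was 29 bases, between *Crmp1* and *Dpysl4*, and was shorter than the 100-base reads in every pair. The best ungapped window of 100 bases held 85 identical bases for *Map1a* and *Map1b*, 82 for *Dcx* and *Dclk1* and 86 for *Crmp1* and *Dpysl4*. These 3 pairs are shown as examples, 1 from each of 3 families, with *Dpysl4* chosen for the longest identical run, and each window is the closest stretch within its own pair. The window shown for *Crmp1* and *Dpysl4* does not hold that run of 29 bases. The closest window of *Crmp1* among its relatives was with *Dpysl3*, with 87 identical bases. Capitals mark the bases that are identical in the pair, and each sequence is written 5′ to 3′ on the strand of the gene.
Map1a, chr2:121129948-121130047, plus strand, exon 4 of 6: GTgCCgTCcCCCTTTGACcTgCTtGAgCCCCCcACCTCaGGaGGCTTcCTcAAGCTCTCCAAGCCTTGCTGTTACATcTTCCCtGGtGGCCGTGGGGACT
Map1b, chr13:99571906-99572005, minus strand, exon 5 of 7: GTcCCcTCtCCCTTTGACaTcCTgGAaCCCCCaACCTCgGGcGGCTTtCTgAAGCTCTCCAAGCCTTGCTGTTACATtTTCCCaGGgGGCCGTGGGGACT
Dcx, chrX:142706129-142706228, minus strand, exon 3 of 7: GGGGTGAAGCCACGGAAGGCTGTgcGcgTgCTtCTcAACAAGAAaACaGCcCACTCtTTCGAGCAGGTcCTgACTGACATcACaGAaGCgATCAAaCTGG
Dclk1, chr3:55163489-55163588, plus strand, exon 3 of 17: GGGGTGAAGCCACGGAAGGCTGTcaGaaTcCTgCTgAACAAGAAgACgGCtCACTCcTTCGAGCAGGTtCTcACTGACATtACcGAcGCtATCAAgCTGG
Crmp1, chr5:37440206-37440305, plus strand, exon 10 of 14: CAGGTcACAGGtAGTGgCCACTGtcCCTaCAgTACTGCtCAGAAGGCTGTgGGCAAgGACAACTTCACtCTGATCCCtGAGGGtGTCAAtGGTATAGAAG
Dpysl4, chr7:138676593-138676692, plus strand, exon 10 of 14: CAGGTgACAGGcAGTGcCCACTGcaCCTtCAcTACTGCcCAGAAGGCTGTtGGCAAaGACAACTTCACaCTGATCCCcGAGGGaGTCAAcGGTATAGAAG
On the opposite strand, *Map1a* overlaps *Trp53bp1* and *Ppip5k1*, and *Crmp1* overlaps *Evc*. Their exons in GENCODE release M39 share 0 bases, 309 bases and 461 bases with these members. The counts used RefSeq exons, with 3436 bases for *Crmp1* against 7063 exonic bases in GENCODE. Whether the shared bases lie in the counted exons was not tested. *Ppip5k1* reached at most 54.5 CPM (the count scaled to library size) and *Evc* at most 149 CPM in any library. The library kit does not mark strand, so reads in such shared bases cannot be told apart. Exonic overlaps of the other members were not computed, and the genes that overlap them reached at most 25.7 CPM in any library.

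Total counts ranged from 2.20e+07 to 3.49e+07 per library, and every library held at least 2004 counts of *Mapt*. Levels are CPM scaled by the TMM factors of edgeR, with mean ± SD over the 4 libraries of a group. The study describes the libraries of a group as 4 biological replicates, while the labels do not say which cultures or animals they came from. *Hnrnpr* lay between 119.9 and 422 CPM in the +/+ libraries and between 0.54 and 1.16 CPM in those of *Hnrnpr*-/- motoneurons. The log2 fold change was -7.93 (SE 0.56) in axonal and -7.87 (SE 0.23) in somatodendritic RNA. The defining motoneuron markers were low: *Mnx1* reached at most 0.06 CPM and *Chat* at most 1.30 CPM in any library. In +/+ somatodendritic libraries *Slc18a3* lay at 3.89 to 11.5, *Isl1* at 3.89 to 8.03 and *Slc5a7* at 3.05 to 7.74 CPM. The 7 motoneuron markers together summed to at most 29.9 CPM in any library, with 2 of them lower and 0 higher in axons of each genotype. The 5 pan-neuronal markers *Tubb3*, *Elavl3*, *Elavl4*, *Snap25* and *Rbfox3* summed to 2591 to 3414 CPM in +/+ somatodendritic and 2115 to 3135 CPM in *Hnrnpr*-/- somatodendritic libraries.

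All 10 members were expressed in both compartments of both genotypes. Compared per kilobase of exon in +/+ somatodendritic libraries, *Crmp1* had the highest level with 744 CPM per kb, followed by *Map1b* with 217 and *Mapt* with 137. *Map6* had 73.1, *Dclk1* 56.1, *Dcx* 53.2 and *Map2* 48.5 CPM per kb, and *Map4* followed with 37.1. *Map1a* with 15.7 and *Macf1* with 5.43 CPM per kb were the lowest. Neighbours in this order did not overlap between libraries except *Dclk1* with *Dcx* and *Dcx* with *Map2*. The divisor was the combined exon length given with the counts. It exceeded the canonical transcript unevenly, with 22051 against 9705 bases for *Map2*, 9481 against 3555 for *Map6* and 8419 against 6345 for *Mapt*. The order of the members therefore depends on the lengths used. In +/+ axons, *Crmp1* was again highest with 169 CPM per kb and *Map1b* and *Mapt* followed with 54.9 and 46.2, but the libraries of every pair of neighbours overlapped. *Macf1* with 4.69 and *Map1a* with 3.68 CPM per kb stood last there. Spread was wider in axons: in +/+ libraries the coefficient of variation of *Crmp1* was 1.62% in the somatodendritic compartment and 44.4% in axons, and that of *Mapt* 3.03% and 45.2%.

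**Figure D1:**
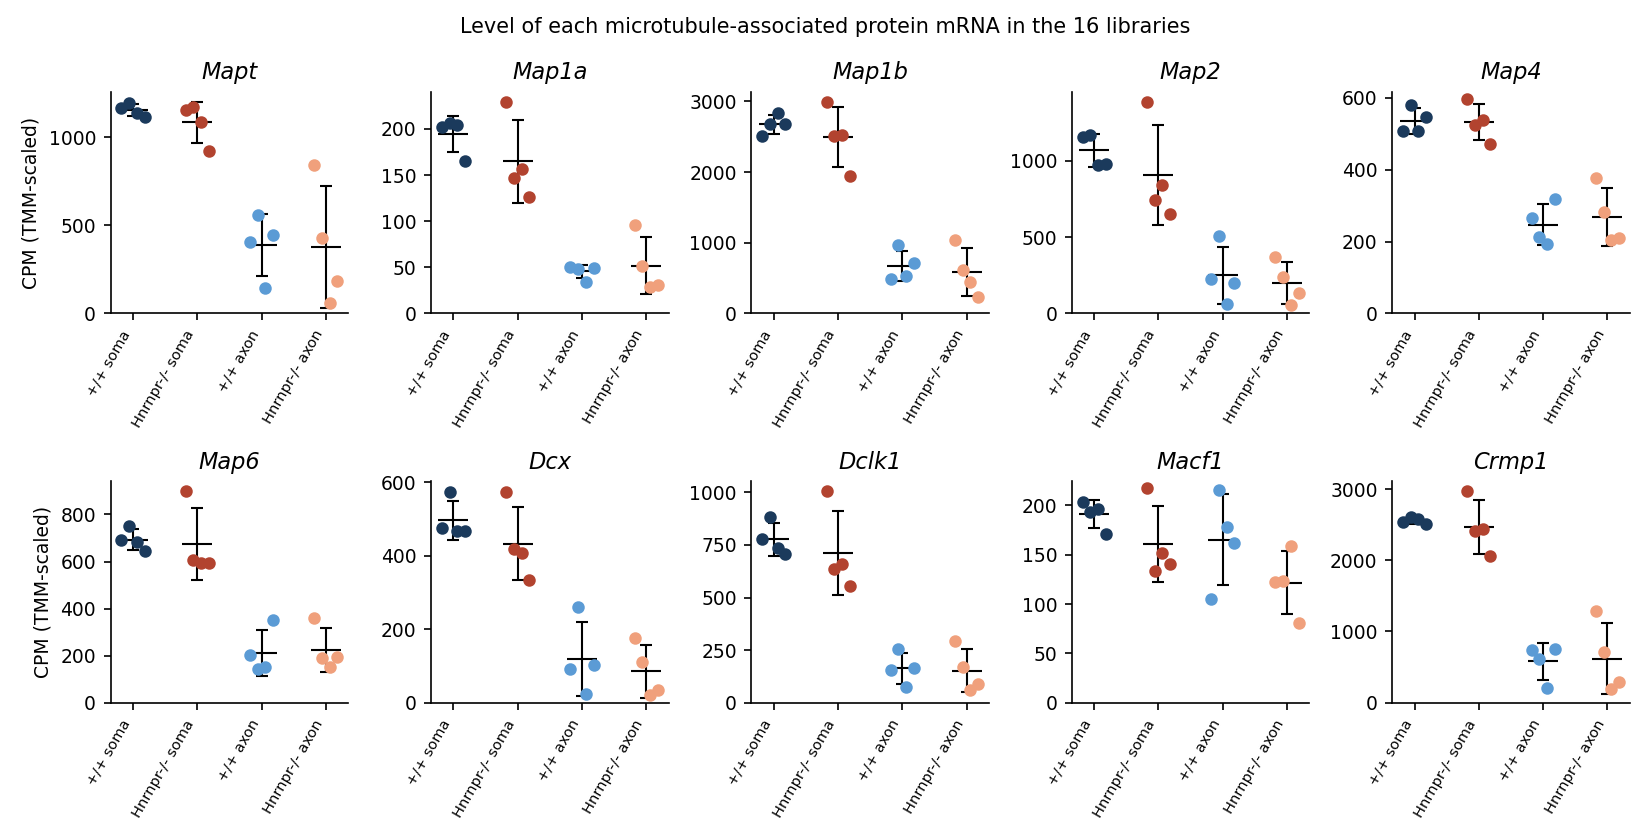
Level of each of the 10 mRNAs in CPM (linear axis from 0, a scale of its own in each panel) in the 4 groups, where each point is 1 library, in the order of the replicate numbers, and the bars give mean ± SD (n = 4). For all genes but *Macf1* the axonal points lie below the somatodendritic points of the same genotype. For *Mapt* the 4 +/+ axonal libraries lie between 143 and 558 CPM, below the lowest +/+ somatodendritic library at 1117 CPM.

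The first question was how the mRNAs are distributed between axons and cell bodies. In +/+ motoneurons, 9 of the 10 members were lower in axonal than in somatodendritic libraries and 0 were higher, and *Macf1* did not pass the test (edgeR quasi-likelihood test, Benjamini-Hochberg adjusted p under 0.05 over 19964 genes). The same count of 9 was lower in *Hnrnpr*-/- motoneurons, again without *Macf1*, and 0 were higher. Among all genes tested, 27.4% were lower and 30.1% higher in +/+ axons, and 26.8% were lower and 27.5% higher in *Hnrnpr*-/- axons. The median log2 fold change of the members was -2.02 in +/+ and -1.83 in *Hnrnpr*-/- libraries, beside a median over all genes tested of 0.07 and -0.0028. These counts were 9 and 9 without both axonal libraries numbered 3, which were left out after the data were seen because their neuronal markers were low. In bulk RNA, fewer neuronal processes in a compartment and less mRNA per process cannot be told apart.

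*Mapt* was measured at 1169, 1197, 1138 and 1117 CPM in the +/+ somatodendritic libraries and at 408, 558, 143 and 448 CPM in the +/+ axonal libraries. In knockout libraries it was at 1157, 1170, 1089 and 920 CPM in the somatodendritic compartment and at 844, 429, 60.1 and 183 CPM in axons. Both axonal libraries numbered 3 were the lowest of their group, and the compartments did not overlap in either genotype, as for 27.6% of all genes lower in +/+ axons and 27.3% lower in *Hnrnpr*-/- axons. The log2 fold change was -1.57 (SE 0.56, adjusted p = 0.0263 by edgeR) in +/+, which is a 2.97-fold lower level, and -1.52 (SE 0.56, adjusted p = 0.0323 by edgeR) in *Hnrnpr*-/-. These *Mapt* calls depended on single libraries. In +/+ the call was lost without axonal replicate 3 (-1.25), somatodendritic replicate 1 (-1.52) or somatodendritic replicate 2 (-1.51). In the knockout it was lost without axonal replicate 2 (-1.58) or 4 (-1.29) and without somatodendritic replicate 1 (-1.44), 2 (-1.45) or 3 (-1.52), and the value was -2.28 without axonal replicate 1.

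*Map2*, the relative of *Mapt* with a dendritic protein, was at 1156, 1171, 973 and 981 CPM in +/+ somatodendritic and at 228, 509.5, 65.0 and 197 CPM in +/+ axonal libraries. The *Hnrnpr*-/- libraries had it at 1385, 745, 841 and 652 CPM in the somatodendritic compartment and at 367, 242, 53.6 and 132 CPM in axons. The compartments did not overlap, and the log2 fold change was -2.10 (SE 0.56, adjusted p = 0.0055 by edgeR) in +/+ and -2.19 (SE 0.56, adjusted p = 0.0048 by edgeR) in *Hnrnpr*-/-. Without +/+ axonal replicate 2, the highest of its group, the +/+ value of *Map2* was -2.72. *Map4*, the member of this family found in most cell types, fell from 535 ± 35.7 to 248 ± 57.5 CPM in +/+ (SD, n = 4), a log2 fold change of -1.11 (SE 0.20). Without hnRNP R, *Map4* had 533 ± 51.0 CPM in the somatodendritic compartment and 269 ± 81.0 CPM in axons, a log2 fold change of -0.99 (SE 0.20).

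*Map1b* had the highest mean CPM of all members in both +/+ compartments. It was at 2514, 2674, 2836 and 2675 CPM in +/+ somatodendritic and at 489, 963, 535 and 714 CPM in +/+ axonal libraries. In knockout libraries it was at 2995, 2508, 2527 and 1947 CPM in the somatodendritic compartment and at 1040.1, 609.9, 449 and 238 CPM in axons. Every axonal library was below every somatodendritic one, with log2 fold changes of -1.99 (SE 0.34) in +/+ and -2.09 (SE 0.35) in *Hnrnpr*-/-. *Map1a* fell from 194 ± 19.4 to 45.6 ± 7.44 CPM in +/+, a log2 fold change of -2.09 (SE 0.33), and had a log2 fold change of -1.67 (SE 0.32) in *Hnrnpr*-/-. *Map6*, the cold-stability protein, fell from 693 ± 45.2 to 212 ± 97.3 CPM in +/+ (log2 fold change -1.71, SE 0.30) and had a log2 fold change of -1.59 (SE 0.30) in *Hnrnpr*-/-.

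*Dcx* had the lowest single axonal value of all members, 19.9 CPM. It was at 475, 575, 467 and 467 CPM in +/+ somatodendritic and at 91.0, 261, 23.2 and 101 CPM in +/+ axonal libraries. The *Hnrnpr*-/- libraries had it at 573, 417, 408 and 334 CPM in the somatodendritic compartment and at 176, 110.2, 19.9 and 35.8 CPM in axons. The compartments did not overlap, with log2 fold changes of -2.06 (SE 0.64, adjusted p = 0.0134 by edgeR) in +/+ and -2.34 (SE 0.65, adjusted p = 0.0074 by edgeR) in *Hnrnpr*-/-. The *Dcx* value was -2.79 without +/+ axonal replicate 2 and -2.98 without *Hnrnpr*-/- axonal replicate 1. *Dclk1*, which adds a kinase domain to the doublecortin repeats, fell from 776 ± 76.4 to 163 ± 73.8 CPM in +/+ (log2 fold change -2.25, SE 0.44) and had a log2 fold change of -2.22 (SE 0.44) in *Hnrnpr*-/-.

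*Crmp1* was at 2537, 2601, 2581 and 2509 CPM in +/+ somatodendritic and at 737, 617, 205 and 759 CPM in +/+ axonal libraries. In knockout libraries it was at 2967, 2408, 2444 and 2056 CPM in the somatodendritic compartment and at 1289, 706, 186 and 293 CPM in axons. No axonal library reached a somatodendritic one. The log2 fold change was -2.14 (SE 0.50) in +/+, a 4.41-fold lower level, and the level was 3.99-fold lower in *Hnrnpr*-/-. Without *Hnrnpr*-/- axonal replicate 1 the log2 value there was -2.65.

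*Macf1* was at 203, 194, 197 and 171 CPM in +/+ somatodendritic and at 105, 216, 178 and 161 CPM in +/+ axonal libraries. The *Hnrnpr*-/- libraries had it at 218, 134, 151 and 140.3 CPM in the somatodendritic compartment and at 123, 124, 159 and 81.1 CPM in axons. The compartments overlapped in both genotypes, and the highest +/+ value was that of axonal replicate 2. The log2 fold change was -0.21 (SE 0.23, adjusted p = 0.451 by edgeR) in +/+ and -0.40 (SE 0.23, adjusted p = 0.156 by edgeR) in *Hnrnpr*-/-, with 95% intervals from -0.71 to 0.28 and from -0.90 to 0.09. A 2-fold lower level, log2 -1, lies outside both of these intervals, which come from the full set of libraries. Over all settings the value of *Macf1* ran from -0.37 to -0.06 in +/+ and from -0.57 to -0.17 in *Hnrnpr*-/-. Without *Hnrnpr*-/- axonal replicate 3, all 10 members, *Macf1* included, had an unadjusted p under 0.05 in edgeR in *Hnrnpr*-/-, and 9 passed after adjustment. The same counts were found without both axonal libraries numbered 3.

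**Figure D2:**
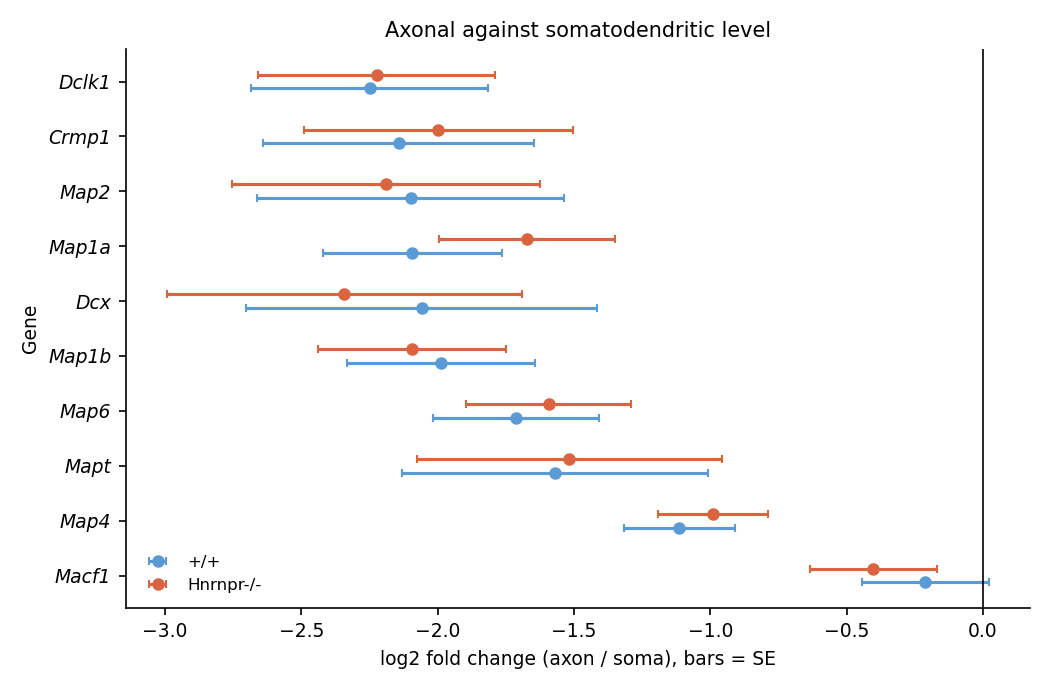
Log2 fold change of the axonal against the somatodendritic level (horizontal axis) for each gene, with +/+ in blue and *Hnrnpr*-/- in red. Points are edgeR estimates from 4 against 4 libraries and bars are their SE. *Macf1* lies nearest to 0 with -0.21 and -0.40, *Map4* follows with -1.11 and -0.99, and the other genes lie between -1.52 and -2.34.

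Markers of neurons and of other cell types were looked at beside these values. Of all genes tested, 27.4% were lower and 30.1% higher in +/+ axons, and 26.8% lower and 27.5% higher in *Hnrnpr*-/- axons. All 5 pan-neuronal markers were lower in axonal libraries of both genotypes, with a median log2 fold change of -1.97 in +/+ and -1.94 in *Hnrnpr*-/-. Their summed level was 787, 1315, 234 and 799 CPM in +/+ axonal and 1649.8, 744, 182 and 255 CPM in *Hnrnpr*-/- axonal libraries, so that both libraries numbered 3 were lowest in their group, as for *Mapt*. Over the 16 libraries, which share the gap between compartments, the log2 level of the members followed the log2 of this sum with Pearson's r between 0.87 for *Map6* and 0.99 for *Dcx*, except *Macf1* with 0.44. Over the 8 axonal libraries r was 0.96 for *Mapt*, 0.99 for *Dclk1*, 0.73 for *Map4*, 0.52 for *Map6* and 0.12 for *Macf1*. The 7 markers of astrocytes or radial glia summed to 1059.98 to 1500.4 CPM in +/+ somatodendritic and 3543 to 5877 CPM in +/+ axonal libraries, and 5 of them were higher in +/+ axons and 3 in *Hnrnpr*-/- axons. The corresponding *Hnrnpr*-/- ranges were 1039 to 2218 and 3222 to 5144 CPM. The 6 markers of fibroblasts or meningeal cells summed to 60.4 to 406 and 128 to 2005 CPM in the same +/+ groups and to 97.8 to 1233 and 185 to 1735 CPM in *Hnrnpr*-/-, and 1 of them was higher in axons of each genotype. Markers of oligodendroglia or Schwann cells ran from 203 to 849 CPM in +/+ somatodendritic, 201 to 1257 in +/+ axonal, 283 to 1033 in *Hnrnpr*-/- somatodendritic and 252 to 1785 CPM in *Hnrnpr*-/- axonal libraries, with 1 of 7 higher in axons of each genotype. In the same order of groups, the 5 microglial markers reached at most 27.8, 44.6, 78.1 and 149 CPM and the 4 endothelial markers at most 11.7, 58.0, 26.5 and 68.5 CPM. Of the endothelial markers, 1 was higher and 1 lower in +/+ axons and 1 higher and 2 lower in *Hnrnpr*-/- axons, and 0 microglial markers passed in either genotype. The part of such cells in the fold changes of the members was not tested.

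**Figure D3:**
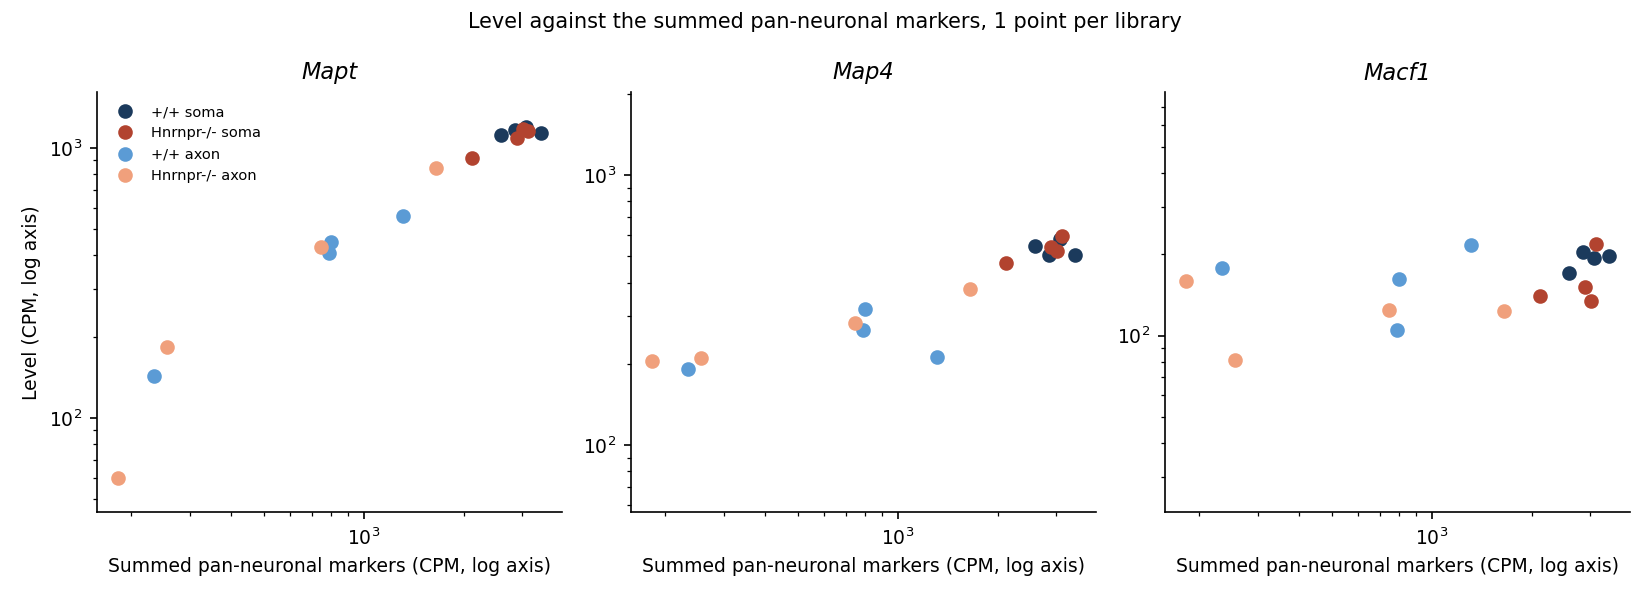
Level of *Mapt*, *Map4* and *Macf1* (vertical, CPM) against the summed level of the 5 pan-neuronal markers (horizontal, CPM), both on log axes and with 1 point for each of the 16 libraries. Over the 16 libraries, which include the gap between compartments, r was 0.98 for *Mapt*, 0.92 for *Map4* and 0.44 for *Macf1*.

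Ratios within a library do not depend on how libraries are scaled. Relative to the summed counts of the 5 pan-neuronal markers, a reference added after the data were seen, *Mapt* was 0.43 higher on the log2 scale in +/+ axons than in +/+ somatodendritic libraries, and the difference was -0.15 for *Crmp1* and -0.35 for *Dcx*. The ratio of *Macf1* was 1.91 higher in +/+ and 2.08 higher in *Hnrnpr*-/- axons (exact two-sided permutation test of 4 against 4 libraries, p = 0.0286 in each genotype, the smallest this design allows, adjusted p = 0.286 and 0.143 over 10 ratios). Without axonal replicate 3 of each genotype these *Macf1* values were 1.36 and 1.47. None of the 10 ratios passed in either genotype after adjustment, which a single ratio cannot do with this smallest p, so the count does not decide on any single gene. An unadjusted p of 0.0286 was reached by *Macf1* in +/+ and by *Macf1* and *Map4* in *Hnrnpr*-/-, all higher in axons. Of all other genes tested, 63.8% were higher and 1.67% lower against these markers in +/+ axons and 56% higher and 1.25% lower in *Hnrnpr*-/- axons at an unadjusted p under 0.05 in the same permutation test.

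Relative to *Mapt*, the neuronal tau mRNA, the +/+ log2 ratio of *Macf1* was -2.60 ± 0.09 (SD, n = 4) in somatodendritic and -1.12 ± 0.99 in axonal libraries, a difference of 1.48. The difference was -0.64 for *Dclk1* and -0.58 for *Crmp1*, and these 3 ratios did not overlap between compartments. Each had p = 0.0286 in the exact two-sided permutation test, the smallest possible, and an adjusted p of 0.0857 over 9 ratios, so that 0 of 9 passed. At this smallest p a ratio can pass after adjustment only when most of the 9 share it. The count that passed therefore does not decide on any single gene. Of all other genes tested, 59.9% were higher and 4.24% lower against *Mapt* in +/+ axons with an unadjusted p under 0.05 in the same permutation test, so the higher ratio of *Macf1* is in the direction of most genes. Without +/+ axonal replicate 3, the difference for *Macf1* was 1.00 in place of 1.48. Without +/+ axonal replicate 2, which had the highest *Mapt* of its group, 6 of 9 passed with an adjusted p of 0.0429 by the same permutation test. Relative to *Mapt*, *Macf1* (1.56) and *Map4* (0.89) were then higher in axons, and *Dcx* (-1.09), *Map2* (-0.94), *Dclk1* (-0.67) and *Crmp1* (-0.44) lower, beside 70.6% of all genes higher and 4.58% lower at an unadjusted p under 0.05 without that library. Of the *Hnrnpr*-/- ratios 0 of 9 passed. The difference for *Macf1* was 1.69 there (p = 0.0857 in the permutation test) and 0.86 without axonal replicate 3, and *Dcx*, with -0.70, reached p = 0.0286 in the same test, beside 44.7% of all genes higher and 2.64% lower at an unadjusted p under 0.05.

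**Figure D4:**
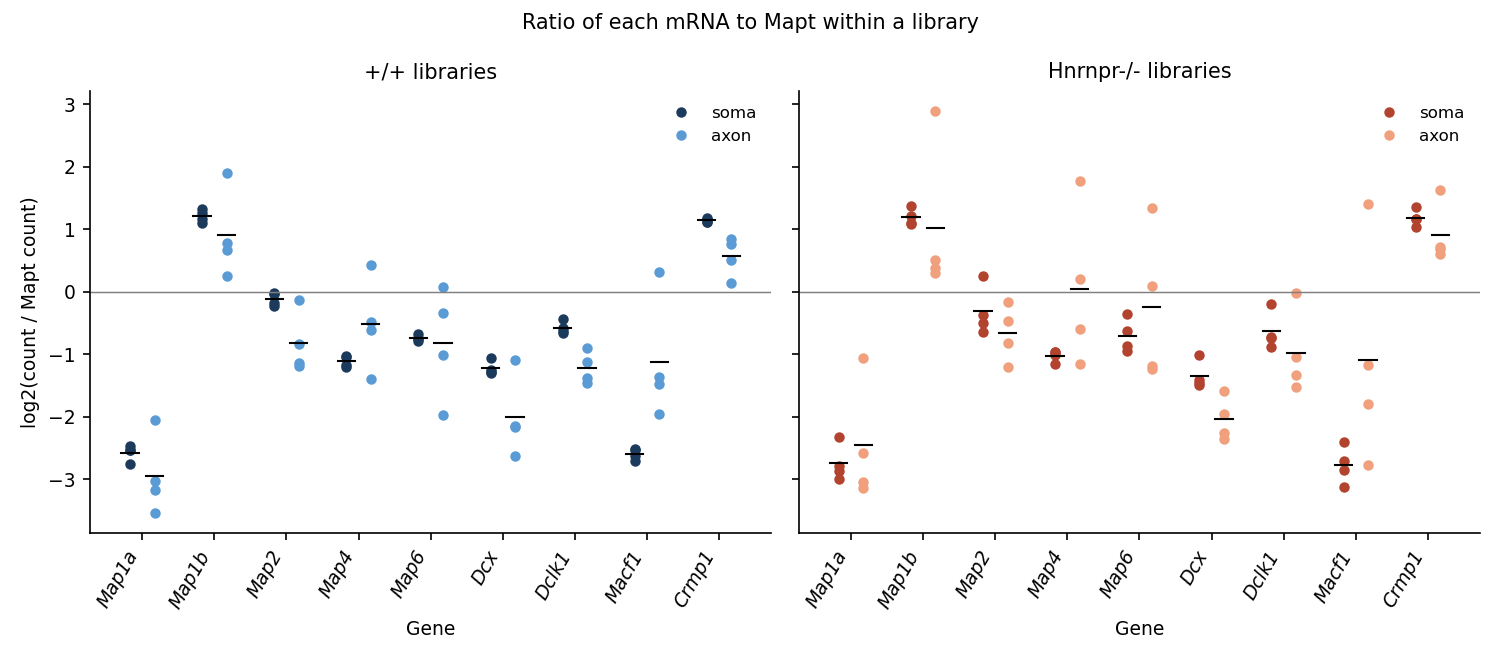
Log2 ratio of each gene's count to the *Mapt* count of the same library (vertical axis) in +/+ (left) and *Hnrnpr*-/- (right) libraries. Each point is 1 library, dark for somatodendritic and light for axonal, and short lines are means of 4. The +/+ *Macf1* points move from between -2.71 and -2.52 in the somatodendritic compartment to between -1.96 and 0.31 in axons, and axonal points spread more widely for every gene.

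The next question was whether loss of hnRNP R changed these mRNAs. In axons 0 of the 10 members passed the test between *Hnrnpr*-/- and +/+ libraries, and 0 had an unadjusted p under 0.05 in edgeR, DESeq2 or limma voom. Of all 18957 genes tested in axons, 0.00528% were called, which is *Hnrnpr* alone. In the somatodendritic compartment 0 members passed and 0 had an unadjusted p under 0.05 with the same 3 tools, and 0.00557% of 17961 genes were called, again *Hnrnpr* alone. These counts of unadjusted p moved with single libraries. Without *Hnrnpr*-/- somatodendritic replicate 1, 6 of 10 members had an unadjusted p under 0.05 in edgeR, all 10 values were negative and their median went from -0.10 to -0.27, while 0 members passed after adjustment. Over all genes the count with such a p went from 471 to 2291 without that library. In axons, 1 member, *Macf1*, had an unadjusted p under 0.05 without +/+ axonal replicate 1, with a log2 fold change of -0.61, while the count over all genes went from 137 to 333. None of the members had genotype groups that did not overlap, beside 0.606% of all genes in axonal and 1.58% in somatodendritic libraries. The genotype effect differed between axons and cell bodies past the threshold for 0 members and for 0% of 19964 genes, of which 265 had an unadjusted p under 0.05 in edgeR. No member had one in edgeR, DESeq2 or limma voom.

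The largest genotype differences among the members in axons were those of *Dcx*, with 119 ± 101 CPM in +/+ and 85.4 ± 72.0 CPM in *Hnrnpr*-/- libraries, and *Macf1*, with 165 ± 46.1 and 122 ± 31.8 CPM (SD, n = 4). The log2 fold change of *Dcx* was -0.51 (SE 0.79, 95% interval -2.31 to 1.29) and that of *Macf1* -0.45 (SE 0.28, 95% interval -1.07 to 0.18). The value of *Dcx* was -1.13 without *Hnrnpr*-/- axonal replicate 1 and 0.24 without +/+ axonal replicate 2, and over all settings that of *Macf1* stayed between -0.61 and -0.28. For *Mapt* the axonal difference was -0.06 with an interval from -1.66 to 1.54, for *Crmp1* 0.08 with an interval from -1.30 to 1.45, and for *Map4* 0.11 with an interval from -0.45 to 0.67. Without *Hnrnpr*-/- axonal replicate 1, the highest of its group for *Mapt*, the value of *Mapt* was -0.81 and that of *Crmp1* -0.56, and all 10 members were negative with a median of -0.60 in place of -0.09. Other single libraries moved the median either way. It was 0.15 with 2 members negative without +/+ axonal replicate 2, and -0.32 with 8 negative without +/+ axonal replicate 3. Without *Hnrnpr*-/- axonal replicates 3 and 4 it was 0.18 and 0.09, with 4 and 3 negative. The axonal values of the other members were -0.36 for *Map2* (95% interval -1.88 to 1.17), -0.23 for *Map1b* (-1.17 to 0.72), -0.12 for *Dclk1* (-1.28 to 1.04), 0.08 for *Map6* (-0.72 to 0.89) and 0.17 for *Map1a* (-0.68 to 1.01). Over all settings these values took both signs. They ran from -0.83 to 0.27 for *Map2*, -0.65 to 0.03 for *Map1b*, -0.63 to 0.20 for *Dclk1*, -0.23 to 0.42 for *Map6* and -0.30 to 0.36 for *Map1a*. A 2-fold genotype difference thus lay within the axonal intervals of all members but *Map4* and *Map6*. In the somatodendritic compartment the intervals were narrower and the differences ran from -0.24 for *Macf1* (95% interval -0.59 to 0.12) to 0.0048 for *Map4* (-0.22 to 0.23), and all 10 intervals from the 8 libraries excluded a 2-fold change. *Hnrnpr*-/- somatodendritic replicate 1 was the highest and replicate 4 the lowest of its group for *Map1b*, *Map4*, *Map6*, *Dcx*, *Dclk1*, *Crmp1*, *Map2* and *Map1a*. The pan-neuronal markers summed to 3135 and 2115 CPM and those of astrocytes or radial glia to 1039 and 2218 CPM in these 2 libraries, whose part in the spread was not tested.

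**Figure D5:**
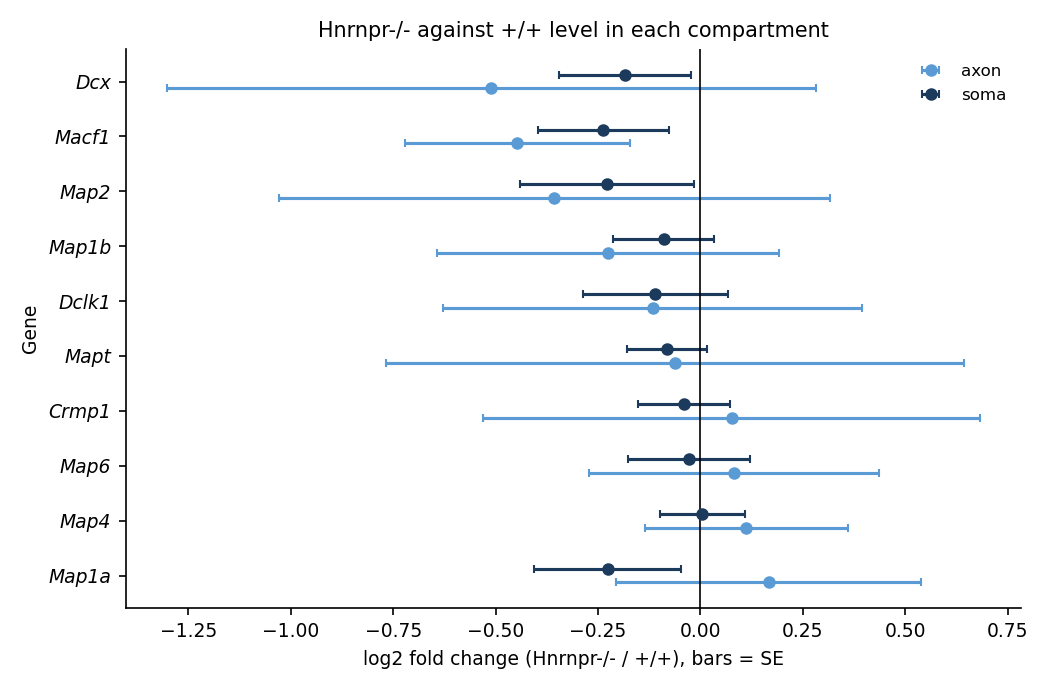
Log2 fold change of *Hnrnpr*-/- against +/+ (horizontal axis) for each gene, with axons in light and the somatodendritic compartment in dark blue. Points are edgeR estimates from 4 against 4 libraries and bars are their SE. Axonal values run from -0.51 for *Dcx* to 0.17 for *Map1a* and somatodendritic values from -0.24 for *Macf1* to 0.0048 for *Map4*, with wider bars in axons.

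A list of 91 other regulators of microtubules was counted in the same fits. In +/+ axons 61 of them were lower and 13 higher, beside 27.4% and 30.1% of all genes, and their median log2 fold change was -0.98. All 4 other collapsin response mediator genes were lower: *Dpysl5* with a log2 fold change of -2.85 (SE 0.38), *Dpysl2* with -2.32 (SE 0.24), *Dpysl4* with -1.19 (SE 0.28) and *Dpysl3* with -0.88 (SE 0.22), beside -2.14 for *Crmp1*. Among the closest relatives of the other members, *Dclk2* was lower with -1.62 (SE 0.30), the microtubule-binding gene *Map9* with -1.72 (SE 0.45) and *Dst*, the spectraplakin most like *Macf1*, with -0.73 (SE 0.26, adjusted p = 0.025 by edgeR). *Map1s*, the short relative of *Map1a* and *Map1b*, had 0.17 (SE 0.19) and *Map7* -0.41 (SE 0.34), and neither passed. Of 17 kinases and phosphatase subunits that act on these proteins, 15 were lower and 0 higher. Of 20 genes for binding microtubule ends, 16 were lower and 1 higher, and of 16 genes for tubulin modification, 10 were lower and 3 higher. Of 9 severing genes 4 were lower and 4 higher, and of 25 further microtubule-associated proteins 12 were lower and 5 higher. The largest falls were those of *Cdk5r1*, the p35 activator of the tau kinase Cdk5, with -3.49 (SE 0.63), *Clip2* with -2.87 (SE 0.32), *Dpysl5*, *Brsk2* with -2.77 (SE 0.55) and *Ppp2r2c* with -2.72 (SE 0.57). The largest rises were those of the mitotic genes *Gtse1* with 3.25 (SE 0.50), *Ckap2* with 2.52 (SE 0.43) and *Tpx2* with 2.08 (SE 0.52), followed by *Fignl1* with 1.65 (SE 0.41) and the vasohibin partner *Svbp* with 1.30 (SE 0.22). Of the list, 0 genes passed between genotypes in either compartment and 0 had an unadjusted p under 0.05 in edgeR in axons or in the somatodendritic compartment. Without *Hnrnpr*-/- somatodendritic replicate 1, 23 of 90 tested list genes had such a p and their median was -0.11 in place of -0.03, and 0 passed after adjustment. DESeq2 gave 2 genes with an unadjusted p under 0.05 in the somatodendritic compartment and called 0.

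Across the 16 libraries the log2 levels of the members other than *Macf1* correlated with each other with a median r of 0.95 over 36 pairs, and from 0.84 to 0.99. The 9 pairs with *Macf1* had a median r of 0.44. Among 11226 genes with a mean of at least 10 CPM, the gene most like *Mapt* was *Rhbdl1* (r = 0.996), followed by *Gap43* (0.996). The most alike were *Dnm1* for *Crmp1* (0.999), *Csrnp3* for *Map2* (0.998), *Kif26b* for *Dclk1* (0.997), *Arhgap44* for *Map1a* (0.996), *Nyap2* for *Dcx* (0.995), *Klhl18* for *Map6* (0.993), *Cep120* for *Map4* (0.993) and *Bend4* for *Map1b* (0.989). For *Macf1* the highest value was lower, 0.901 for *Son*. The gap between compartments, which the libraries share, enters each of these values.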

How the data were processed

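RNA of the somatodendritic and axonal compartments of +/+ and *Hnrnpr*-/- motoneurons was sequenced in 4 groups, taken from the sample titles, of 4 libraries. The cDNA was made with a SMART-Seq v4 kit and 10 (somatodendritic) or 15 (axonal) PCR cycles and read from 1 end. The deposited values are estimated counts: the authors aligned reads with STAR 2.7.2b to the RefSeq assembly of GRCm39 and counted exons with featureCounts 1.6.4 in the reverse-strand setting, dividing reads with several alignments or overlapping genes, without normalization. Of the values, 21.7% are not whole, and all were rounded.

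Axonal against somatodendritic contrasts and the difference of the genotype effect were fitted with edgeR 4.0.16 (R 4.3.3; filterByExpr, TMM, quasi-likelihood) to all 16 libraries. Genotype contrasts were fitted within the 8 libraries of a compartment, because the common dispersion was 0.275 in axons and 0.0499 in somatodendritic libraries. Tests are two-sided with Benjamini-Hochberg adjustment over all genes and a threshold of 0.05. The SE is the log2 fold change divided by the square root of F, and intervals use its t quantile. Ratios used a pseudocount of 0.5 and exact permutation tests. The code was tested on simulated data. DESeq2 1.42.0, limma 3.58.1 and other settings were alternatives. No 2 libraries were identical.

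The members, the lists of 91 regulators and of cell type markers, and the tests were chosen with earlier results of these data known. Named were all members, their closest relatives, the 5 largest rises and falls in +/+ among called list genes with at least 10 CPM, and the gene most like each member. The labels do not state pairs, so replicate numbers were checked as pairs. Deviations of same-numbered compartments correlated with r of 0.14 to 0.60 in *Hnrnpr*-/- and of 0.07 to 0.34 in +/+ libraries. Those of same-numbered genotypes correlated with r of 0.00046 to 0.62 in the somatodendritic compartment and 0.03 to 0.85 in axons. The numbers were taken as pairs only between the compartments of *Hnrnpr*-/- cultures, where each somatodendritic library correlated best with its own number. From the axonal side this held in +/+ and not in *Hnrnpr*-/-. The matching stretches of the other pairs of relatives are not reported here.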

Additional observations from a re-analysis of the deposited data

Results flagged for a closer look

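Of 40 groups of 4 libraries, 1 for each member and group, 4 held a library far from the other 3 in CPM, where chance flags about 1 in 20 groups. *Map1a* was at 165 CPM in +/+ somatodendritic replicate 4 and at 34.5 CPM in +/+ axonal replicate 3, each below the other 3 libraries of its group. *Map6* was at 902 CPM in *Hnrnpr*-/- somatodendritic replicate 1 and *Dcx* at 575 CPM in +/+ somatodendritic replicate 2, each above the other 3. No genotype effect of a member differed between the compartments past the threshold.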

How the results depend on the processing

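The 9 members lower in axons and the 0 higher held in both genotypes under RLE, upper-quartile and library-total scaling, no filter, at least 10 counts in a group, fractional counts, DESeq2, limma voom with quality weights, and without both axonal libraries numbered 3 (added later), and no sign of a member changed. In *Hnrnpr*-/- the count was 8 when only the 8 libraries of that genotype were fitted, without *Mapt*. Without 1 library at a time it was 8 to 9 in each genotype. Upper-quartile and library-total scaling moved the +/+ median of all genes from 0.07 to 0.20 and 0.22, and that of the members to -1.90 and -1.87. The genotype counts stayed at 0 under every setting run, while 19 of 190 axonal and 12 of 180 somatodendritic values of single members took the other sign. For the 91 regulators, leaving out 1 library gave 54 to 61 lower and 12 to 14 higher in +/+. Ratios to *Mapt* called in +/+ ranged from 0 to 6 when 1 library was left out, with 6 without axonal replicate 2 (3 against 4 libraries), and were 0 with pseudocounts of 0 and 5 or with *Map1b* as reference. The cause was not tested.

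With the replicate number as a block, 9 members were lower in each genotype, and 63 regulators were lower and 13 higher in +/+. With the culture as a block, 9 members were lower in each. The paired test of ratios, whose smallest p is 0.125, called 0. In *Hnrnpr*-/-, where the numbers were taken as pairs, the block changed no call of a member. In +/+, where they were not, somatodendritic replicate 4 did not correlate best with its own number. From the axonal side, *Hnrnpr*-/- axonal replicate 2 correlated better with somatodendritic replicate 1 (r = 0.28) than with its own number (r = 0.14). Each +/+ axonal library correlated best with its own number. Genotype calls stayed at 0 with the block. Libraries held at least 2.20e+07 counts, and the smallest count of a member was 664 (*Dcx*), while its coefficient of variation in axons was 84.3% and 84.5%.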

Other observations

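Tubulins, the proteins that members bind, were counted as a list too. Of 12 tubulin genes, 8 were lower and 1 higher in +/+ axons, with a median log2 fold change of -0.95, and 7 were lower and 2 higher in *Hnrnpr*-/- axons. Of all genes tested, 27.4% were lower and 30.1% higher in +/+ axons and 26.8% lower and 27.5% higher in *Hnrnpr*-/- axons. The neuronal *Tubb3*, which is also 1 of the pan-neuronal markers, was lower with a log2 fold change of -1.99 (SE 0.49), *Tuba4a* with -2.07 (SE 0.48) and *Tuba1a* with -0.69 (SE 0.15). *Tubb6*, a beta-tubulin of many non-neuronal cells, was higher by 4.22 (SE 0.67). The summed tubulin level was 19086 to 23397 CPM in +/+ somatodendritic and 11654 to 13673 CPM in +/+ axonal libraries, while the summed level of the 10 members was 9983 to 10833 and 1603 to 3784 CPM.

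Of 5 intermediate filament genes of neurons, 4 were lower in +/+ axons: *Nefm* with -2.74 (SE 0.69), *Nefh* with -2.50 (SE 0.83), *Nefl* with -2.14 (SE 0.73) and *Ina* with -1.88 (SE 0.64). *Prph*, also a motoneuron marker, had 0.24 (SE 0.52) at 1.09 to 1.55 CPM in +/+ somatodendritic libraries. In *Hnrnpr*-/- axons 3 of the 5 were lower, beside the same shares of all genes. Of the tubulin and intermediate filament genes, 0 passed between genotypes in either compartment. These genes were named after their values were seen.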
